A study of Mus musculus with 47 samples.

Results

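The 38 genes described here encode the enzymes and carriers of mitochondrial and peroxisomal fatty acid oxidation and a set of target genes of PPAR alpha, measured in mouse kidney. They were taken by symbol from 22474 genes in the deposited count table, from a list chosen with earlier results of these data known. They fall into 8 roles. These are 2 regulators, 3 genes of uptake and activation, 5 of the carnitine system and 9 mitochondrial beta oxidation enzymes. The others are 3 electron transfer flavoproteins, 8 peroxisomal genes, 4 acyl-CoA thioesterases and 4 other PPAR alpha targets. All 38 passed the filter on low counts, which left 18786 genes to test.

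The samples were 47 poly(A) RNA libraries of mouse kidney, a tissue the labels call metanephros, from wild-type mice of the inbred strains NZO/HlLtJ, C57BL/6J and CAST/EiJ. Females (F) and males (M) of each strain received a diet with 10% fat and fiber or one with 44% fat and fiber from 6 weeks of age, and tissue was taken at 15 weeks. The series description calls the second one high in both fat and sugar, so the diets differ in more than fat, and the labels list no other treatment. Strain, sex and diet make 12 groups, with 4 libraries per group except for CAST/EiJ M on 10% fat, where there are 3. The series title states an interest in how genotype and diet act together in mouse models of type 2 diabetes.

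Long-chain fatty acids enter the cell through carriers such as CD36 and FATP2 (Slc27a2), are joined to coenzyme A, cross the mitochondrial membranes as carnitine esters and are shortened in repeated cycles of dehydrogenation, hydration, dehydrogenation and thiolysis. Very long and branched chains are first shortened in peroxisomes. PPAR alpha is a nuclear receptor for fatty acids that pairs with RXR on direct repeats of the sequence AGGTCA and raises many of these genes, and the proximal tubule is known as a site of heavy fatty acid use.

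Total counts per library, in mega-counts, ran from 34.39 to 58.43 with a median of 44.76, and genes of the mitochondrial genome took 10.69% to 15.46% of them. In M this share did not overlap between the diets in any strain, while in F it did. In M on 10% and 44% fat it was 13.1% to 13.84% and 14.36% to 15.46% in C57BL/6J. The ranges were 13.33% to 14.07% and 11.13% to 12.64% in CAST/EiJ M, and 10.69% to 11.95% and 12.24% to 14.27% in NZO/HlLtJ M. The 38 genes together took 0.909% to 1.273%, with a median of 1.059%. Xist, the X-inactivation RNA, lay at 863 to 1400 CPM (counts per mega-count of the library) in the 24 F libraries and at most 2.43 CPM in the 23 M libraries, so that this RNA matched the labelled sex in all 47 libraries. Proximal tubule markers were abundant in every library, with Lrp2 at no less than 4470 CPM and Slc34a1 at no less than 2160 CPM. The 7 white fat cell markers summed to 23.9 to 73.3 CPM over all libraries, of which Fabp4 made up 22.1 to 57.3 CPM. Adipoq and Plin1 stayed at or below 3.67 and 3.74 CPM, and Lep was at 0 in 11 libraries. The 4 brown fat cell markers summed to 11 to 35.0 CPM, with Ucp1 at up to 15.8 CPM and at 0 in 5 libraries. ID numbers in the labels fall into 3 runs (77, 81 and 89) whose meaning the labels do not give, and the model carried a term for them. In whole tissue, fewer cells of a type and less RNA per cell cannot be told apart. The labels do not say whether each library is a separate animal, so p-values measure the spread between these libraries.

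Of the 38 genes, 3 sets lie close together in the genome (GENCODE M21 coordinates, GRCm38). Hadha and Hadhb, the paired subunits of the mitochondrial trifunctional protein, start 86 bases apart on opposite strands of chr5. Acot1 to Acot4 stand in a 71.7 kb cluster at chr12:83987861-84059565, all on the plus strand. Acaa1a and Acaa1b, a pair of peroxisomal thiolases, start 182.6 kb apart on chr9. In 31-base words of GENCODE M21 transcripts, Acaa1b shared 40.0% of its sequence with Acaa1a, Acot2 shared 29.9% with Acot1, and Etfb shared 47.3% with the overlapping gene model Gm45233. The counting method is not given in the sources used here, so reads of these genes may be split between the copies, and their values are uncertain to that degree.

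The receptor's own binding letters were looked for because the genes were grouped as its targets. The motif searched was AGGTCA, any 1 base (N), and AGGTCA again, on both strands, with at most 2 mismatches among its 12 defined letters, in windows from 250 bases before to 50 after the start in RefSeq promoters (GRCm38.p6). A promoter was held for 32 of the 38 genes, and 4 of them (12.5%) had a match, against 4.4% of all 27025 genes with a promoter and 3.9% of all 32851 promoters of this length. The matches are shown with 8 bases on each side, on the gene's own strand, with the matching stretch in capitals:
Acot4, chr12:84038366-84038378: ccgaagcaTGACCTTTGGCCGgtctgtgc
Cd36, chr5:17835947-17835959: tggttctcTGGCCTCTGACTTacttggat
Etfa, chr9:55512308-55512320: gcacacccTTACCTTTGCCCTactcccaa
Slc25a20, chr9:108662142-108662154: ctgaatgtAGGTGAAAGGTCGgcggagcc

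The Acot4 match begins 13 bases before the start, that of Cd36 63 bases before and that of Etfa 77 bases before, each reading on the opposite strand, while that of Slc25a20 begins at base 6 after the start. Allowing 3 mismatches gave 10 of 32 (31.2%) against 27.3% of all genes and 24.6% of all promoters, and allowing 1 gave 0 of 32. None of the 4 genes was called in any diet comparison below. Next to these, 3 genes that were called on 44% fat, chosen after their values were seen, are shown over the 250 bases before their start, with a stretch of the fewest mismatches to the motif, 4 in each, in capitals (in Eci1 it is not the only stretch with as few):
Acaa1b, chr9:119157094-119157343: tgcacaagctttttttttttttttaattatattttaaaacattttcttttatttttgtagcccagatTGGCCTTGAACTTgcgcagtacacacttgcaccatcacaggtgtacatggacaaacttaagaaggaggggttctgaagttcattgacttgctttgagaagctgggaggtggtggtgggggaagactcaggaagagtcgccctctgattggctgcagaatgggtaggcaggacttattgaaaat
Eci1, chr17:24426433-24426682: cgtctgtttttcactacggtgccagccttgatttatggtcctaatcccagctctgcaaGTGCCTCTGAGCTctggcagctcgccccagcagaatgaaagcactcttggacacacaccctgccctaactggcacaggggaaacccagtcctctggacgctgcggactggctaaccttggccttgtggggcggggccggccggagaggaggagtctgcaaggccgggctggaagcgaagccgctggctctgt
Ucp2, chr7:100493108-100493357: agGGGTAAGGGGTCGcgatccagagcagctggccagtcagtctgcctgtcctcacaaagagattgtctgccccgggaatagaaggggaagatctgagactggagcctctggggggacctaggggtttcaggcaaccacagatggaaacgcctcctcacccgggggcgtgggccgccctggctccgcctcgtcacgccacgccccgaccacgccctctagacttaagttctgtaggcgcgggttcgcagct

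A match or its absence describes these letters in these windows and says nothing of binding.

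The genes differed widely in abundance. Per kilobase of exon, Slc27a2, which carries and activates very long chain fatty acids, was the highest at a mean of 791.4 CPM per kb, followed by Ehhadh, the peroxisomal bifunctional enzyme, at 271.8 and Acadm, the medium-chain acyl-CoA dehydrogenase, at 221.9 CPM per kb. Ucp2, a mitochondrial carrier, was the lowest at 8.278 CPM per kb. The regulators Ppara and Ppargc1a lay at 20.8 and 16.38 CPM per kb. Over all 47 libraries the highest CPM of a gene exceeded its lowest by 1.35 times for Crat, carnitine acetyltransferase, and by 39.0 times for Pdk4, the kinase that closes pyruvate dehydrogenase.

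Strain and sex took larger shares of the variance than diet in the median gene. The variance of each gene's log2 CPM was divided over the terms of the design. Strain took a median of 26.1% over the 38 genes, sex 23.2% and their interaction 5.62%. The medians were 4.29% for diet, 3.57% for diet by strain and sex and 0.297% for the ID run, with 12.7% left over. Diet by strain and sex reached 16.5%, in Ppargc1a, and the ID run 22.8%, in Ppara. Sex took the largest share in 14 genes, strain in 12, the remainder in 11 and strain by sex in 1, Vnn1. Diet took the largest share in 0 genes and reached at most 21.2%, in Vnn1 (pantetheinase), followed by 20.2% in Acadvl, the very long chain acyl-CoA dehydrogenase. Sex took 86.3% in Acot3 and 84.7% in Crot, and strain took 84.5% in Acot4. The heat map of mean z-scores by group shows the same division.

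**Figure D1:**
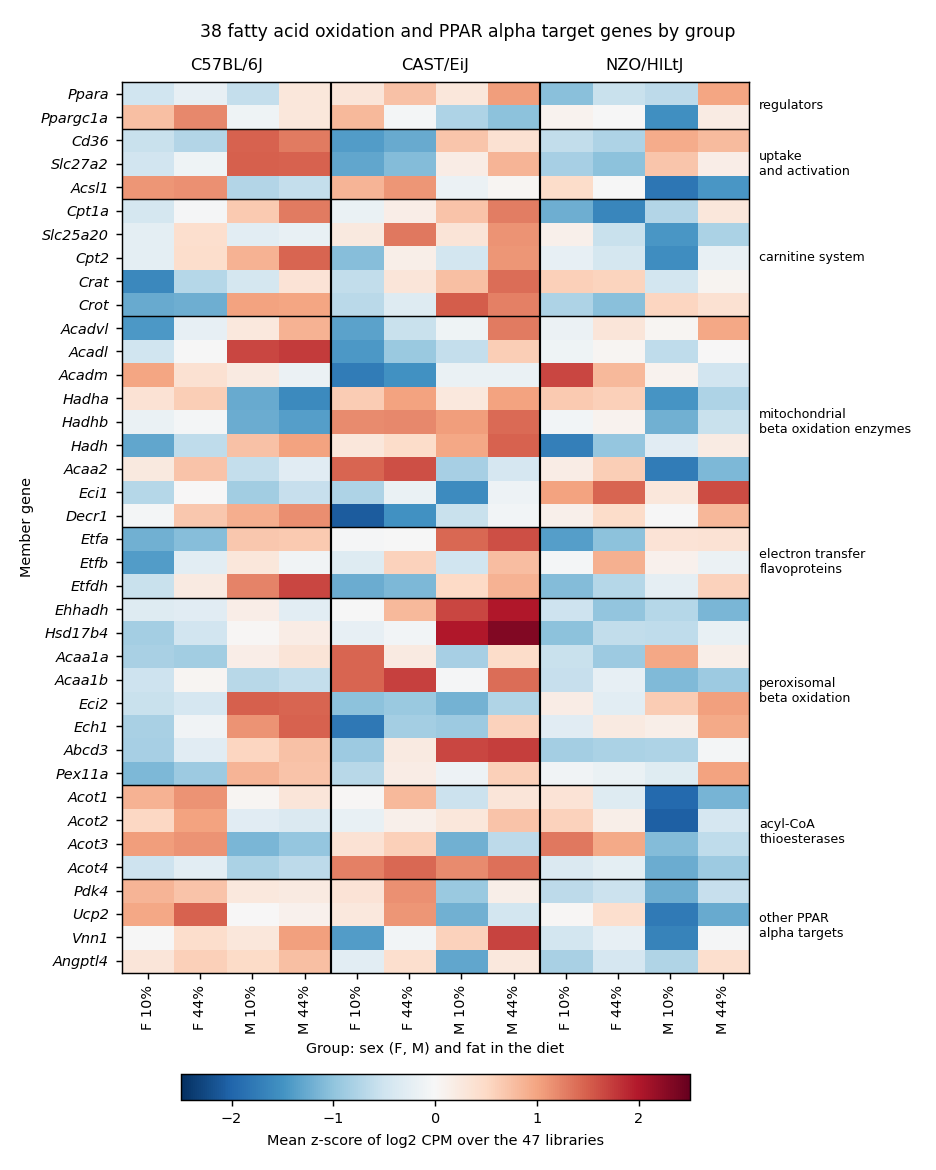
Mean z-score of log2 CPM (colour, scale below the map) of the 38 genes (rows, ordered by role) in the 12 groups of strain, sex (F, M) and fat in the diet (columns). Blocks of colour follow sex in Cd36, Crot, Acsl1 and Acot3, and strain in Acot4 and Acaa1b, and Hsd17b4 stands highest in both columns of CAST/EiJ M.

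The mean z-score over the 38 genes was highest in CAST/EiJ M on 44% fat at 0.722 ± 0.107 (SD, n = 4) and lowest in NZO/HlLtJ M on 10% fat at -0.636 ± 0.282 (SD, n = 4). The 44% group lay above the 10% group in each strain, by 0.273 in C57BL/6J, 0.553 in CAST/EiJ and 0.311 in NZO/HlLtJ as means of both sexes, where the SD within groups was 0.323. The score is a description and was not tested.

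On 44% fat, 33 of the 38 genes lay higher than on 10% fat when the 3 strains and both sexes were averaged, by a median of 0.11 on the log2 scale, where the median of all genes tested was 0.00. Of the 38, 14 rose and 0 fell at an adjusted p under 0.05 (edgeR's quasi-likelihood test with Benjamini-Hochberg adjustment over all genes tested; a gene under this threshold is termed called), against 3.81% of all genes called in this comparison, 2.12% as higher and 1.69% as lower. The 14 came from most steps of the pathway: 6 of 9 mitochondrial beta oxidation enzymes, 3 of 8 peroxisomal genes, 2 of 4 other targets, and 1 each of the regulators, the carnitine system and the electron transfer flavoproteins. None of the 3 uptake and activation genes or the 4 thioesterases was called.

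The largest of these averaged changes were in Vnn1, which rose by 0.45 on the log2 scale (SE 0.07, adjusted p = 0.000171), and Acaa1b, by 0.34 (SE 0.07, adjusted p = 0.00258), both by edgeR. Vnn1 encodes pantetheinase, which splits a precursor of coenzyme A, and Acaa1b a peroxisomal thiolase. Eci1, which shifts double bonds so that unsaturated chains can be oxidized, rose by 0.28 (SE 0.04), and Acaa2, the mitochondrial thiolase of the last step, by 0.28 (SE 0.04). Ucp2 rose by 0.21, Cpt2 (which releases acyl chains from carnitine inside the mitochondrion) by 0.20, Ech1 by 0.19 and Decr1 (which, like Ech1, serves unsaturated chains) by 0.16. Hadh, Hsd17b4, Acadvl and Etfdh rose by 0.09 to 0.12, increases of 1.07 to 1.09 times. The remaining 2 of the 14, Acadl at 0.12 and Ppara itself at 0.25 (SE 0.07, adjusted p = 0.0278), fall outside the rule for named genes and were chosen after their values were seen. The diet difference of Ppara within ID runs 77, 81 and 89 was 0.56, 0.06 and 0.06 in C57BL/6J. In CAST/EiJ it was 0.43, 0.04 and 0.13, and in NZO/HlLtJ it was 0.41 within run 77. The averaged changes of the 14 genes ran from 0.09 to 0.45. Without ID run 77 the count was 5 and without ID run 81 it was 8. The 5 were Eci1, Hadh, Ucp2, Acaa2 and Ech1, so that Vnn1 (0.36, adjusted p = 0.0774 in edgeR) and Ppara were not called. Acaa1b was called neither without run 77 (0.35, adjusted p = 0.108) nor without run 81 (0.33, adjusted p = 0.116), both in edgeR.

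C57BL/6J gave the fewest calls. In this strain 0 of 38 genes were called, against 0.0266% of all genes, although 32 lay higher on 44% fat and 14 had an unadjusted p under 0.05. limma-voom and DESeq2's Wald test each called 1, Acaa2. Its values in F were 151, 156, 154 and 148 CPM on 10% fat and 223, 183, 190 and 169 CPM on 44% fat, which did not overlap, while in M 98.8, 116, 91.3 and 107 CPM overlapped with 126, 118, 102 and 135 CPM. The log2 fold change over both sexes was 0.27 (SE 0.07), with an adjusted p of 0.290 in edgeR. Etfdh, which passes electrons from the flavoprotein to ubiquinone, stood at 0.12 (SE 0.04), Hadh at 0.12 (SE 0.04) and Decr1 at 0.15 (SE 0.05), none of them called.

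In CAST/EiJ 7 of 38 genes rose and 0 fell, against 0.99% of all genes called, 0.543% as higher and 0.447% as lower. These were Ech1, Ucp2, Acaa1b, Eci1, Cpt2, Vnn1 and Acadl, and 36 of the 38 lay higher, with a median of 0.15. Acaa1b in M read 192, 151 and 202 CPM on 10% fat and 379, 341, 327 and 386 CPM on 44% fat. In F the same gene read 308, 396, 410 and 362 CPM on 10% fat and 329, 361, 545 and 458 CPM on 44% fat. The groups of M stood apart and those of F overlapped. Over both sexes Acaa1b rose by 0.58 (SE 0.12, 1.5 times, adjusted p = 0.0133 in edgeR), while the difference of its diet effect between F and M, -0.79 (SE 0.24), was not called at an adjusted p of 0.409.

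Ucp2, an inner membrane carrier of the mitochondrion, measured 53.6, 64.2, 65.2 and 57.3 CPM in CAST/EiJ F on 10% fat and 84.1, 78.7, 73.0 and 70.0 CPM in F on 44% fat. In M it measured 37.6, 38.7 and 42.2 CPM on 10% fat and 52.9, 47.9, 46.7 and 47.8 CPM on 44% fat. Every library on 44% fat lay above every library on 10% fat of its sex, and the fold change was 1.26 times (log2 0.33, SE 0.07, adjusted p = 0.0102 in edgeR). Ucp2 kept its call when any 1 of the 15 CAST/EiJ libraries was removed. It lost the call without ID run 81 (0.36, adjusted p = 0.16) or run 89 (0.4, adjusted p = 0.056), both in edgeR.

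In CAST/EiJ M, Eci1 lay at 32.1, 31.4 and 39.0 CPM on 10% fat and at 46.9, 47.9, 48.2 and 48.4 CPM on 44% fat. Ech1, a peroxisomal and mitochondrial dienoyl-CoA isomerase, lay at 182, 183 and 220 CPM on 10% fat and at 251, 243, 250 and 246 CPM on 44% fat. The groups of M did not overlap for either gene, whereas those of F did. Over both sexes of CAST/EiJ Eci1 rose by 0.34 (SE 0.07) and Ech1 by 0.28 (SE 0.05).

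Several CAST/EiJ calls changed when 1 library was left out. Without CAST/EiJ M 10% replicate 1 or replicate 2 the count of 7 became 3 or 2, and without F 10% replicate 4 or F 44% replicate 4 it became 4. Acaa1b kept its call except without M 10% replicate 2 (log2 0.51, adjusted p = 0.0684), and Eci1 except without that library (0.31, adjusted p = 0.069) or M 10% replicate 1 (0.33, adjusted p = 0.0506), all in edgeR. Cpt2 and Vnn1 lost their calls without each of these 4 libraries, with values of 0.28 to 0.31 for Cpt2 and 0.50 to 0.53 for Vnn1. Acadl kept its call in 5 of 15 such fits, within 0.17 to 0.25. In the group of 3 M on 10% fat, replicate 3 was the highest library in 32 of the 38 genes. Fitted with CAST/EiJ alone the count was 3, and without ID run 77, 81 or 89 it was 2, 0 or 1.

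The diet difference was also taken within each ID run. In CAST/EiJ, 31, 36 and 31 of the 38 genes lay higher on 44% fat within runs 77, 81 and 89, with medians of 0.12, 0.15 and 0.11. In C57BL/6J, 33, 21 and 33 did, with medians of 0.17, 0.02 and 0.11. In NZO/HlLtJ both diets of a sex met only within run 77, where 29 of the 38 lay higher (median 0.09). The other runs held F on one diet and M on the other, so that diet and sex cannot be told apart there. The within-run difference of Eci1 was 0.35, 0.31 and 0.35 in CAST/EiJ and 0.33 in NZO/HlLtJ.

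In NZO/HlLtJ 6 genes rose and 1 fell, against 3.62% of all genes called, 1.98% as higher and 1.64% as lower. Those that rose were Acaa2, Eci1, Hsd17b4, Vnn1, Hadh and Decr1, and the one that fell was Acadm, while 30 of the 38 lay higher with a median of 0.10. Acaa2 measured 145, 152, 156 and 140 CPM in F on 10% fat and 174, 176, 181 and 197 CPM in F on 44% fat. In M it measured 63.5, 59.6, 58.3 and 58.8 CPM on 10% fat and 96.9, 60.4, 80.5 and 88.4 CPM on 44% fat. The groups of F stood apart, and in M replicate 2 on 44% fat lay within the 10% group. The fold change was 1.29 times (log2 0.37, SE 0.07, adjusted p = 0.00255 in edgeR).

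Vnn1 in M of NZO/HlLtJ lay at 40.7, 38, 42.8 and 40.0 CPM on 10% fat and at 95.1, 55.1, 55.9 and 82.7 CPM on 44% fat, with no overlap. In F it lay at 53.2, 59.9, 60.7 and 71.7 CPM and at 62.1, 63.3, 58.1 and 84.1 CPM, with overlap. Over both sexes it rose 1.40 times (log2 0.48, SE 0.12, adjusted p = 0.0162 in edgeR), and without NZO/HlLtJ M 44% replicate 1 the call was lost (0.39, adjusted p = 0.0724). Eci1 in M lay at 57.8, 48.4, 55.2 and 50.1 CPM on 10% fat and at 97.5, 58.5, 67.7 and 71.1 CPM on 44% fat, again without overlap. In F Eci1 lay at 56.9 to 66.9 CPM on 10% fat and at 62.9 to 80.7 CPM on 44% fat, with overlap.

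Acadm went the other way. In NZO/HlLtJ F it measured 1330, 1280, 1550 and 1370 CPM on 10% fat and 1200, 982, 1080 and 1010 CPM on 44% fat. In M it measured 930, 828, 855 and 814 CPM on 10% fat and 797, 745, 641 and 702 CPM on 44% fat. Both sexes were lower on 44% fat without overlap, and the gene fell by 0.31 on the log2 scale (SE 0.08, 1.24 times, adjusted p = 0.0205 in edgeR). The call was lost without M 10% replicate 1 (-0.28, adjusted p = 0.0538) or F 10% replicate 3 (-0.28, adjusted p = 0.0572). Acadm stood at -0.20 in C57BL/6J and at 0.05 in CAST/EiJ, neither called. It was the only one of the 38 genes called as lower on 44% fat within a strain.

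Hsd17b4, the peroxisomal enzyme that hydrates and dehydrogenates branched chains, rose by 0.17 (SE 0.04) in NZO/HlLtJ, where F lay at 183 to 196 CPM on 10% fat and 207 to 235 CPM on 44% fat. In M it lay at 202 to 230 CPM on 10% fat and 227 to 259 CPM on 44% fat, with overlap. Hadh rose by 0.16 and kept its call in 11 of the 16 fits that left out 1 library of the strain, within 0.14 to 0.19. Decr1 rose by 0.18 and kept its call in 6 of 16, within 0.13 to 0.21. Leaving out M 44% replicate 1 took the count of 7 to 4, and leaving out M 44% replicate 2 took it to 11. In their group, replicate 1 was the highest library in 27 of the 38 genes and replicate 2 the lowest in 19. limma-voom called 12 and DESeq2 11, the strain fitted alone gave 2, and leaving out run 77, 81 or 89 gave 1, 0 or 2.

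**Figure D2:**
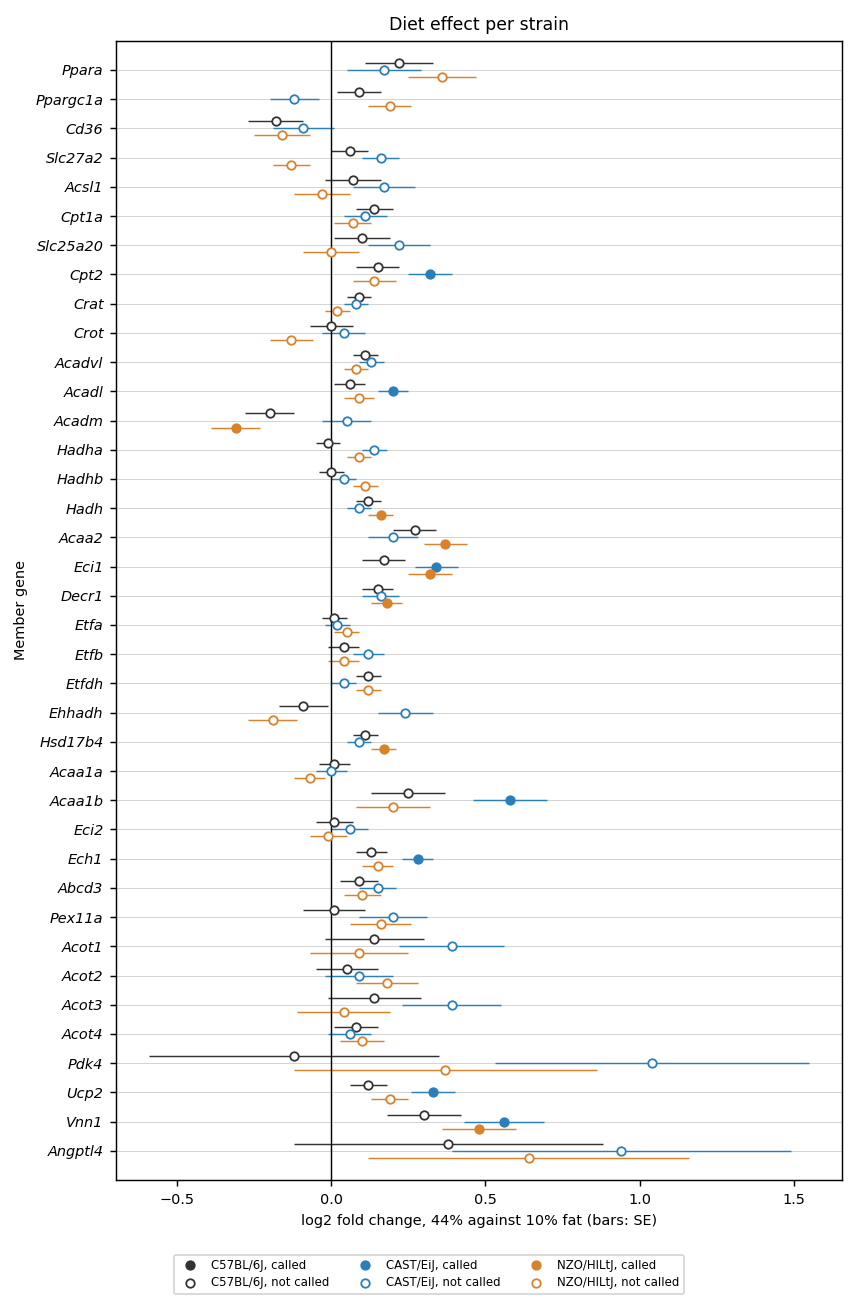
Log2 fold change of 44% against 10% fat (x axis) for each of the 38 genes (y axis) in C57BL/6J, CAST/EiJ and NZO/HlLtJ, with bars of 1 SE; filled points passed an adjusted p under 0.05 and open points did not. Most points lie to the right of 0, the filled ones number 0, 7 and 7 in the 3 strains, and Pdk4 and Angptl4 carry the widest bars.

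The 7 and 7 calls met in Eci1 and Vnn1, with 9 further genes called as higher in 1 strain only, Acadm as lower in 1 strain and 26 called in none. This does not show that the strains differ in their response. The diet effects of NZO/HlLtJ and C57BL/6J differed in 0 of the 38 genes (0.0373% of all genes), those of CAST/EiJ and C57BL/6J in 0 (0.0532%) and those of NZO/HlLtJ and CAST/EiJ in 0 (1.28%) in edgeR. At an unadjusted p under 0.05 the counts were 2, 6 and 5. The smallest p values belonged to the difference between NZO/HlLtJ and CAST/EiJ: -0.44 (SE 0.12, adjusted p = 0.0642) for Ehhadh and -0.28 (SE 0.08, adjusted p = 0.0814) for Slc27a2 in edgeR. Ehhadh passed in limma-voom (adjusted p = 0.0339), in DESeq2 (0.0188) and in limma on the deposited variance-stabilized values (0.0473). DESeq2 also called Slc27a2 (0.0333), and limma-voom called Acadm (-0.38, adjusted p = 0.048).

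By sex within strain, the diet difference was positive in 34 of 38 genes in C57BL/6J F and 25 in M, in 36 in CAST/EiJ F and 34 in M, and in 20 in NZO/HlLtJ F and 31 in M. Groups without overlap, 44% above 10%, were counted in 13 genes of C57BL/6J F (2.14% of all genes) and 0 of M (1.9%). In CAST/EiJ the counts were 2 in F (1.63%) and 13 in M (5.21%, with 3 libraries on 10% fat), and in NZO/HlLtJ 4 in F (4.09%) and 6 in M (3.24%). Groups without overlap in the other direction numbered 0 in C57BL/6J (1.6% in F, 1.94% in M), 0 in CAST/EiJ F (1.75%), 1 in CAST/EiJ M (5.51%), 3 in NZO/HlLtJ F (3.22%) and 1 in NZO/HlLtJ M (3.56%). The diet effect of F minus that of M was called in 0 genes in each strain in edgeR, limma-voom, DESeq2 and limma on the variance-stabilized values, with 0, 5 and 10 unadjusted p under 0.05 in C57BL/6J, CAST/EiJ and NZO/HlLtJ. Of all genes, 0%, 0.0479% and 0.00532% were called. In NZO/HlLtJ the smallest p belonged to Acsl1 at -0.68 (SE 0.20, adjusted p = 0.261), whose F lay lower on 44% fat without overlap. Groups without overlap were counted on CPM, without the term for ID run. In NZO/HlLtJ both diets of a sex met only within run 77. Diet and the other runs therefore cannot be told apart in its no-overlap counts by sex.

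Pdk4 and Angptl4, both textbook PPAR alpha targets that respond to fasting, had the largest spread within groups, with an SD of 1.01 and 1.09 on the log2 scale against a median of 0.14 over the 38 genes. In CAST/EiJ F on 10% fat Pdk4 lay at 17.9, 274, 83.0 and 18.8 CPM, and Angptl4, a secreted inhibitor of lipoprotein lipase, at 6.16, 90.5, 39.8 and 6.22 CPM. In NZO/HlLtJ F on 10% fat Pdk4 lay at 12.6, 14.3, 87.9 and 14.9 CPM and Angptl4 at 6.28, 9.38, 67.5 and 5.58 CPM. The same library was highest in both genes in 10 of the 12 groups. The highest library exceeded the lowest of its group by 1.3 to 15.3 times for Pdk4 and by 1.56 to 14.7 times for Angptl4. On 44% fat Pdk4 stood at 1.04 in CAST/EiJ and Angptl4 at 0.94, the largest fold changes of all 38 genes there, and neither was called. These genes were chosen after their values were seen.

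**Figure D3:**
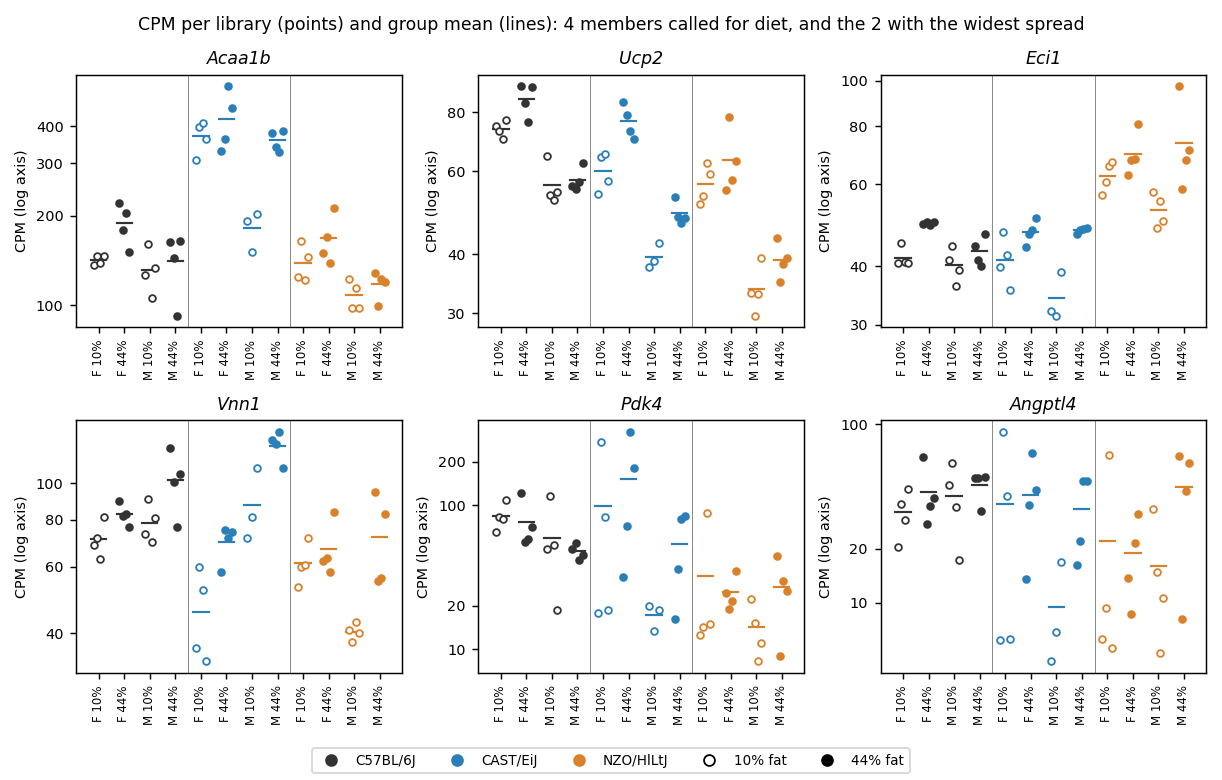
CPM (log axis) in each of the 47 libraries (points; open 10% fat, filled 44% fat) and group means (lines) for Acaa1b, Ucp2, Eci1, Vnn1, Pdk4 and Angptl4, by strain, sex and diet. Ucp2 and, in M, Acaa1b and Eci1 separate by diet in CAST/EiJ, while Pdk4 and Angptl4 spread over more than 10 times within some groups.

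Of 71 other genes of fatty acid oxidation and PPAR alpha signalling, 70 could be tested, and Fgf21 was not analysed here. Averaged over strains, 10 of the 70 rose and 5 fell on 44% fat. In this comparison 3.81% of all genes were called, 2.12% as higher and 1.69% as lower. Plin2, the lipid droplet coat protein, rose by 0.38 (SE 0.05), and the omega-hydroxylases Cyp4a14 and Cyp4a10 by 1.39 (SE 0.21) and 0.62 (SE 0.11). Lpl, which frees fatty acids from circulating triglyceride, fell by 0.67 (SE 0.13). Within strains 0 of 70 were called in C57BL/6J, 3 rose and 0 fell in CAST/EiJ, and 8 rose and 3 fell in NZO/HlLtJ. The shares of all genes called in these strains were 0.0266%, 0.99% and 3.62%. The median over the 70 was 0.02 and that of the 38 was 0.11. Cyp4a10 and Cyp4a14 belong to a family of similar copies, so their separate values are uncertain.

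Markers of kidney cell types moved with diet in part. In NZO/HlLtJ 3 of 10 markers of proximal tubule segments S1 and S2 rose and 0 fell on 44% fat, 2 of 8 S3 markers fell, and 4 of 6 intercalated cell markers fell. Of all genes, 3.62% were called in this strain, 1.98% as higher and 1.64% as lower. Slc27a2 stands both among the 38 and among the S3 markers. In M of that strain the summed S1 and S2 markers ran from 17600 to 18800 CPM on 10% fat and from 19800 to 23700 CPM on 44% fat, without overlap. In F they ran from 23200 to 26700 CPM on 10% fat and from 21900 to 24900 CPM on 44% fat, with overlap. In CAST/EiJ 1 of 10 S1 and S2 markers fell and 0 of 8 S3 markers were called, while 2 of 7 tubular injury markers rose. In CAST/EiJ 0.99% of all genes were called, 0.543% as higher and 0.447% as lower. Of the immune markers 0 of 7 for macrophages and 0 of 5 for lymphocytes were called there, but their sums did not overlap between the diets in either sex. The lymphocyte sum in CAST/EiJ ran from 3.31 to 10.5 CPM on 10% fat and 16.3 to 26.5 CPM on 44% fat in F, and from 6.42 to 8.5 CPM and 13.3 to 52.1 CPM in M. The macrophage sum ran from 169 to 191 CPM and 192 to 237 CPM in F, and from 188 to 211 CPM and 224 to 249 CPM in M. In NZO/HlLtJ the macrophage sum of F ran from 135 to 150 CPM on 10% fat and 161 to 368 CPM on 44% fat, and the other immune sums overlapped between the diets. In C57BL/6J the summed thick ascending limb markers lay lower on 44% fat, without overlap in either sex. They ran from 8690 to 9280 CPM on 10% fat and 7150 to 8580 CPM on 44% fat in F. In M they ran from 6420 to 7050 CPM and 5720 to 6300 CPM. The tubular injury sum lay higher on 44% fat without overlap in F of NZO/HlLtJ, at 1310 to 1370 CPM and 1560 to 1930 CPM. It did so in F of CAST/EiJ as well, and overlapped in the other groups. The part of these shifts in the results was not tested.

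Between the sexes most of the 38 genes differed. Of the 38, 10 were higher and 18 lower in F than in M of C57BL/6J (47.9% of all genes called, 25.1% as higher and 22.7% as lower). In CAST/EiJ 8 were higher and 18 lower (47.6%, 23.7% and 23.9%), and in NZO/HlLtJ 12 and 12 (49.9%, 25.4% and 24.5%). All F libraries lay above all M libraries in 6 genes of C57BL/6J (10.6% of all genes), 4 of CAST/EiJ (6.6%) and 7 of NZO/HlLtJ (8.04%). All F libraries lay below all M libraries in 12 (12.1%), 8 (10.6%) and 5 (9.13%). Either way that made up 22.7%, 17.2% and 17.2% of all genes. Acsl1, Acaa2, Acot3 and Ucp2 were higher in F in all 3 strains. Cd36, Slc27a2, Cpt1a, Crot, Hadh, Etfa, Etfdh, Hsd17b4 and Ech1 were lower in F in all 3. Eci1, Etfb and Angptl4 were called in none. Beyond the 12 genes with the smallest adjusted p in each strain, the genes named by role in the next 5 paragraphs were chosen after their values were seen.

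Uptake and activation split. Cd36, the fatty acid translocase, ran from 104 to 161 CPM in C57BL/6J F (median 147) and from 539 to 872 CPM in M (median 664). It ran from 68.6 to 99.8 CPM in CAST/EiJ F (median 84.8) and from 256 to 408 CPM in M (median 365). In NZO/HlLtJ it ran from 108 to 156 CPM in F (median 139) and from 360 to 536 CPM in M (median 448). No F library reached any M library of its strain, and the log2 fold changes were -2.25, -2.06 and -1.70 (SE 0.10 each). Slc27a2 was also lower in F, at -0.63, -0.61 and -0.48 in the order C57BL/6J, CAST/EiJ and NZO/HlLtJ. Acsl1, the long-chain acyl-CoA synthetase, was higher in F, with medians of 642 against 240 CPM in C57BL/6J, 610 against 355 CPM in CAST/EiJ and 401 against 144 CPM in NZO/HlLtJ. Its groups did not overlap in any strain, and the log2 fold changes were 1.37, 0.79 and 1.42 (SE 0.10 each).

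In the carnitine system Crot, which moves peroxisomal products onto carnitine, was the most different between the sexes. It ran from 216 to 250 CPM in C57BL/6J F and 605 to 717 CPM in M, from 251 to 371 CPM and 570 to 908 CPM in CAST/EiJ, and from 238 to 316 CPM and 417 to 611 CPM in NZO/HlLtJ. The sexes did not overlap in any strain, with log2 fold changes of -1.48, -1.25 and -0.91 (SE 0.07 each). Cpt1a, the rate-limiting carnitine palmitoyltransferase, was lower in F, at -0.30, -0.26 and -0.30. Cpt2 and Crat were lower in F of C57BL/6J and CAST/EiJ and stood at 0.12 and 0.08, not called, in NZO/HlLtJ.

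Among the mitochondrial enzymes the direction varied from gene to gene. Acaa2 ran from 258 to 312 CPM in CAST/EiJ F and 86.8 to 141 CPM in M, and was higher in F by 0.62, 1.46 and 1.23 in the 3 strains. Acadl, the long-chain acyl-CoA dehydrogenase, was lower in F of C57BL/6J (-0.46) and CAST/EiJ (-0.27) and stood at 0.07, not called, in NZO/HlLtJ. Of the divergent pair, Hadha was higher in F by 0.49 in C57BL/6J and 0.45 in NZO/HlLtJ and stood at 0.05 in CAST/EiJ. Hadhb was higher in F by 0.32 in C57BL/6J and 0.24 in NZO/HlLtJ and stood at -0.01, not called, in CAST/EiJ. Etfa and Etfdh, which carry the electrons onward, were lower in F in every strain, with values between -0.44 and -0.22.

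In peroxisomes Hsd17b4 ran from 228 to 259 CPM in CAST/EiJ F and from 418 to 499 CPM in M, which is -0.91 on the log2 scale (SE 0.04, adjusted p = 1.78e-22 in edgeR). In C57BL/6J and NZO/HlLtJ the fold changes were -0.31 and -0.16. Abcd3, the peroxisomal fatty acyl-CoA transporter, was lower in F of C57BL/6J (-0.30) and CAST/EiJ (-0.51) and stood at -0.10, not called, in NZO/HlLtJ. Acaa1a and Acaa1b, which share sequence, parted: Acaa1b was higher in F of CAST/EiJ (0.63) and NZO/HlLtJ (0.44), and Acaa1a was lower in F of C57BL/6J (-0.13) and NZO/HlLtJ (-0.15) but higher in CAST/EiJ (0.12).

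Of the thioesterases, which release free fatty acids from coenzyme A, Acot3 ran from 45 to 61.8 CPM in C57BL/6J F and from 7.40 to 15.2 CPM in M. Its log2 fold changes were 2.20, 1.51 and 2.05 (SE 0.16 each), the largest F-over-M values of the 38 genes in C57BL/6J and NZO/HlLtJ. Its cluster neighbours lay closer to 0. Acot1 stood at 0.41, 0.27 and 0.76, Acot2 at 0.29, -0.14 and 0.44, and Acot4 at 0.12, 0.05 and 0.34. Of these, Acot1 and Acot2 were called in C57BL/6J and NZO/HlLtJ and Acot4 in NZO/HlLtJ alone. Ucp2 was higher in F by 0.49, 0.62 and 0.72 with no overlap in any strain.

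**Figure D4:**
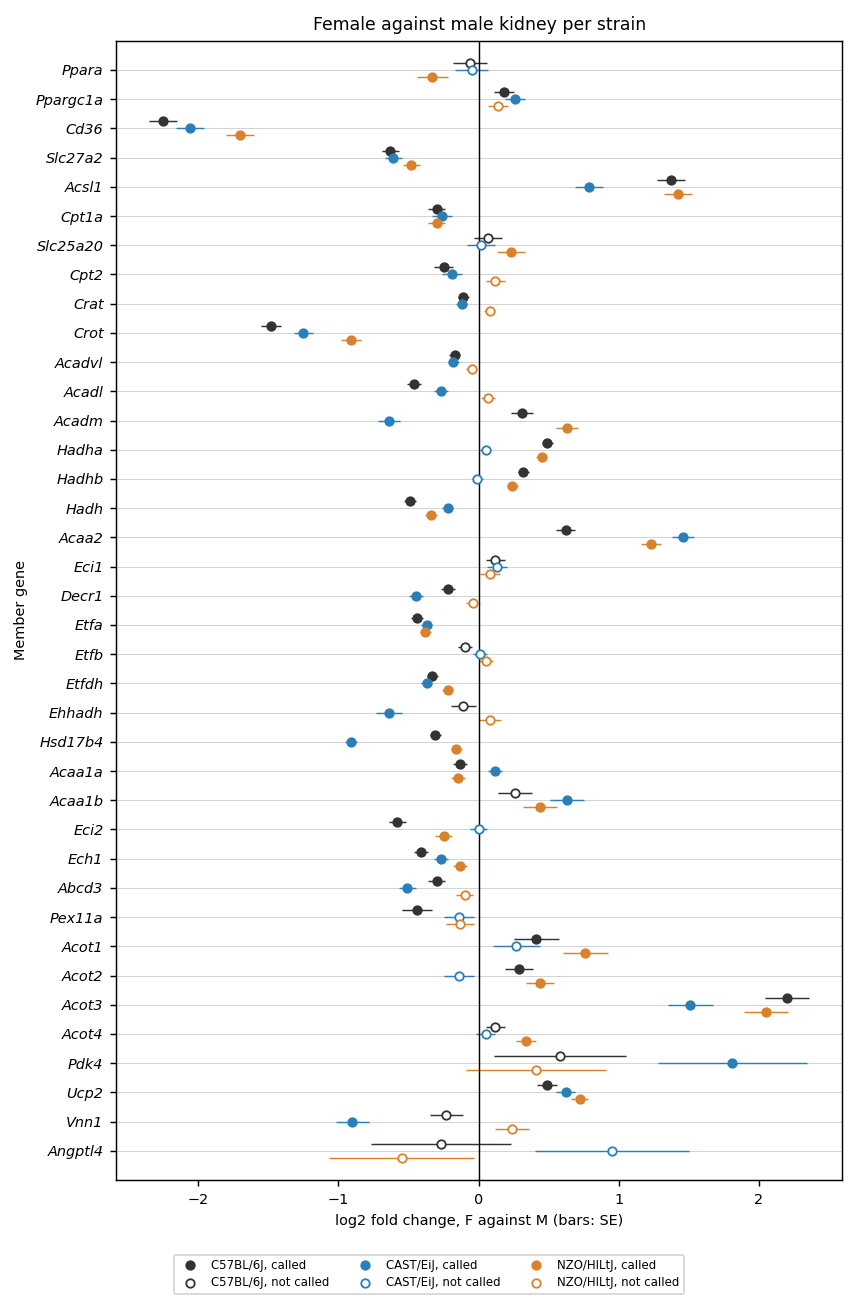
Log2 fold change of F against M (x axis) for each of the 38 genes (y axis) in the 3 strains, with bars of 1 SE; filled points passed an adjusted p under 0.05 and open points did not. Cd36 and Crot lie far to the left and Acot3, Acsl1 and Acaa2 to the right in every strain, and Acadm lies to the left in CAST/EiJ and to the right in the other strains.

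Between strains the size of the F-M difference varied. CAST/EiJ and C57BL/6J differed in 13 of the 38 genes, 4 higher and 9 lower (13.2% of all genes called, 5.94% as higher and 7.3% as lower). NZO/HlLtJ and C57BL/6J differed in 8, all higher (4.95%, 2.6% as higher and 2.35% as lower). Of the called genes, Acadm had the largest difference. It ran from 397 to 580 CPM in CAST/EiJ F and 747 to 891 CPM in M, but from 982 to 1550 CPM in NZO/HlLtJ F and 641 to 930 CPM in M. The sexes did not overlap in either strain and stood in opposite order. The log2 fold change of F against M was -0.64 in CAST/EiJ, 0.63 in NZO/HlLtJ and 0.31 in C57BL/6J, and the difference of CAST/EiJ from C57BL/6J was -0.95 (SE 0.12, adjusted p = 5.15e-08 in edgeR).

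The F-M difference of CAST/EiJ minus that of C57BL/6J was -0.60 for Hsd17b4, 0.85 for Acaa2 and -0.57 for Acsl1. Compared with C57BL/6J, NZO/HlLtJ had F-M differences that were higher by 0.57 for Crot, 0.55 for Cd36, 0.62 for Acaa2 and 0.52 for Acadl. For Crot and Cd36, F were lower than M in both strains, and the gap was smaller in NZO/HlLtJ. Without ID run 89 the 13 calls became 6, and without run 77, 81 or 89 the 8 calls became 5, 3 or 4. When 1 library was removed at a time, Acot3 kept its call for CAST/EiJ in 17 of 31 cases.

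**Figure D5:**
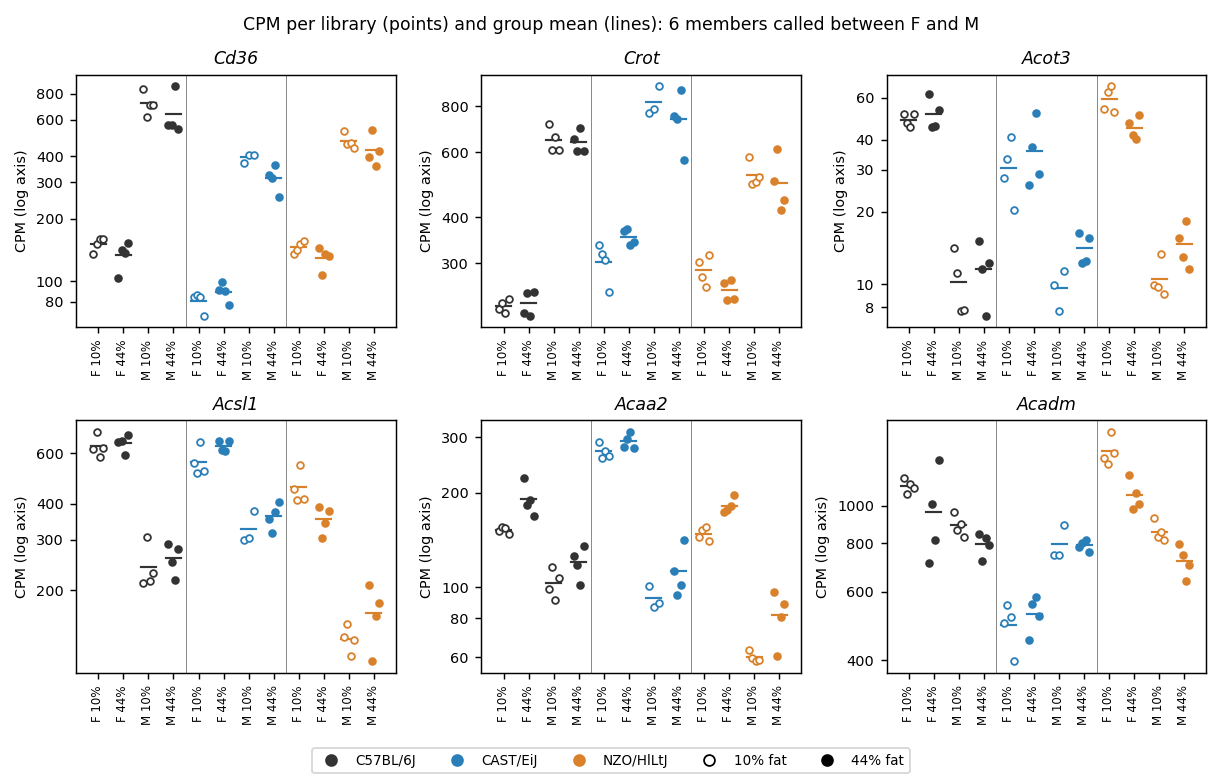
CPM (log axis) in each of the 47 libraries (points; open 10% fat, filled 44% fat) and group means (lines) for Cd36, Crot, Acot3, Acsl1, Acaa2 and Acadm, by strain, sex and diet. The sexes stand apart in every panel and strain except Acadm in C57BL/6J, and Acadm is lower in F than in M in CAST/EiJ alone.

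Markers of the S3 segment differed between the sexes. Their summed level ran from 4740 to 6590 CPM in F and from 7930 to 11900 CPM in M over all strains, with no overlap. This sum includes Slc27a2, itself one of the genes described here and lower in F. Slc27a2 had a mean of 2690 CPM in F and 4160 CPM in M of C57BL/6J. Its means were 2160 and 3330 CPM in CAST/EiJ and 2310 and 3230 CPM in NZO/HlLtJ. The sum is therefore not independent of the sex results, and the sum without Slc27a2 is not given here. Of 8 S3 markers, 5, 6 and 5 were lower and 2, 2 and 3 higher in F of C57BL/6J, CAST/EiJ and NZO/HlLtJ, with Slc27a2 among the lower ones in each strain. All 6 markers of the thick ascending limb and all 5 of podocytes were higher in F in each strain. Of all genes, 25.1%, 23.7% and 25.4% were called as higher in F in the same order of strains. The shares called as lower were 22.7%, 23.9% and 24.5%. The part of these differences in the sex results was not tested.

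On 10% fat the strains differed in 19 to 26 of the 38 genes. For CAST/EiJ against C57BL/6J that was 60.5% of the 38, near the 60% of all genes. For NZO/HlLtJ against CAST/EiJ it was 68.4% against 59.1%, and for NZO/HlLtJ against C57BL/6J 50% against 36.9%. NZO/HlLtJ against C57BL/6J gave 2 higher and 17 lower of 38 (36.9% of all genes called, 18.6% as higher and 18.3% as lower). CAST/EiJ against C57BL/6J gave 13 higher and 10 lower (60%, 30.3% as higher and 29.7% as lower), and NZO/HlLtJ against CAST/EiJ gave 9 higher and 17 lower (59.1%, 29.2% and 29.9%). These comparisons share groups, so their counts are not independent.

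Acaa1b and Acot4 were higher in CAST/EiJ than in both other strains when the sexes were averaged. In F on 10% fat Acaa1b lay at 308 to 410 CPM in CAST/EiJ, 137 to 146 CPM in C57BL/6J and 122 to 164 CPM in NZO/HlLtJ. In M it lay at 151 to 202 CPM in CAST/EiJ, which overlapped with 106 to 161 CPM in C57BL/6J and lay above the 97.6 to 123 CPM of NZO/HlLtJ. Over both sexes its log2 difference from C57BL/6J was 0.92 (SE 0.12) and that of Acot4 0.84 (SE 0.07, adjusted p = 8.88e-14 in edgeR). Hsd17b4 and Hadhb were higher by 0.52 and 0.50, and Acadm (-0.68), Decr1 (-0.53) and Cd36 (-0.89) were lower. NZO/HlLtJ was higher than C57BL/6J in Eci1 (0.50, SE 0.07) and Crat (0.12), and lower in all 3 uptake and activation genes, at -0.65 for Acsl1, -0.32 for Cd36 and -0.18 for Slc27a2. Of the other PPAR alpha targets it was lower in Pdk4 (-1.63, SE 0.50), Vnn1 (-0.57) and Ucp2 (-0.56), while Angptl4 at -0.82 was not called. Crat, Cd36, Slc27a2, Pdk4 and Angptl4 fall outside the rule for named genes in this comparison and were chosen after their values were seen. NZO/HlLtJ stood below CAST/EiJ in Acaa1b (-1.08, SE 0.12), Acot4 (-0.90, SE 0.07) and Hsd17b4 (-0.68, SE 0.04) and above it in Acadm (0.81, SE 0.08) and Eci1 (0.62, SE 0.07).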

How the data were processed

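Per the labels, kidney poly(A) RNA was sequenced as 100-base paired reads at a target of 30 M pairs. The deposited gene table holds expected counts, which were rounded because 25.9% of its values were not whole, and the authors also gave a deposited table of variance-stabilized log2 values (5.93 to 21.1). The submitters' processing notes name DESeq2 and GRCm38, and the aligner, the counter and strand use are not given in the sources used here.

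Of 22474 genes, 18786 passed edgeR's filterByExpr over the 12 groups and 3688 were set aside. After TMM scaling, edgeR 4.0.16 (R 4.3.3) fitted the 47 libraries with a robust quasi-likelihood model of group and ID run (33 residual degrees of freedom). Adjusted p under 0.05 (Benjamini-Hochberg over 18786 genes) was the threshold. CPM uses TMM-scaled library sizes, and log2 CPM a prior count of 1. Alternatives used limma 3.58.1, DESeq2 1.42.0, other filters, scalings and sample sets. The fit was also run on simulated data, and the outcome is not given here.

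Genes named in a comparison are up to 12 called genes by smallest adjusted p, or the 4 smallest where under 4 were called, and others are said to be chosen after their values were seen. The 38 genes and all lists were chosen with earlier results of these data known. Whether reads of the 3 strains map equally well was not tested. The values of 1 further pathway gene are not reported here.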

Additional observations from a re-analysis of the deposited data

Results flagged for a closer look

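A single library stood far from the other 3 of its group in 10 of 187 groups of 4, over 16 genes and the mean z-score of the 38, whose values were looked at this way (the gap to the nearest library over the group's range exceeded 0.829). Chance flags about 1 in 20 groups. The libraries concerned were Angptl4 at 32.5 CPM in C57BL/6J M on 44% fat, Angptl4 at 67.5 CPM and Pdk4 at 87.9 CPM in NZO/HlLtJ F on 10% fat, and Eci1 at 45 CPM in C57BL/6J F on 10% fat. Hsd17b4 at 235 CPM in NZO/HlLtJ F on 44% fat and Ucp2 at 64.5 CPM in C57BL/6J M on 10% fat were the highest of their groups. Acadl stood apart at 333 CPM in C57BL/6J M on 10% fat and at 257 CPM in NZO/HlLtJ M on 44% fat. Decr1 did so at 135 CPM in CAST/EiJ M on 44% fat and at 132 CPM in NZO/HlLtJ M on 10% fat.

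The log2 difference of F against M differed between strains in the following genes, each called in edgeR and named by the rule. Decr1 (-0.23) was also called as lower for CAST/EiJ minus C57BL/6J and falls outside that rule, so it was chosen after its value was seen. For CAST/EiJ minus C57BL/6J it was higher for Acaa2 (0.85), Eci2 (0.58), Hadh (0.27) and Acaa1a (0.25). It was lower for Acadm (-0.95), Acot3 (-0.69), Vnn1 (-0.67), Hsd17b4 (-0.60), Acsl1 (-0.57), Ehhadh (-0.53), Hadha (-0.44) and Hadhb (-0.33). For NZO/HlLtJ minus C57BL/6J it was higher for Acaa2 (0.62), Crot (0.57), Cd36 (0.55), Acadl (0.52), Cpt2 (0.37), Eci2 (0.32), Ech1 (0.27) and Crat (0.19).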

How the results depend on the processing

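Among the genes named by the rule, no direction reversed under any alternative fit. No gene called for diet within a strain reversed within an ID run. Directions of the other genes were not followed in this way, and some changed between runs. Acadm in C57BL/6J stood at -0.45, -0.28 and 0.07 within runs 77, 81 and 89. With the strains compared fitted alone, the genes called for diet were 3 in CAST/EiJ and 2 in NZO/HlLtJ. limma-voom called 1 in C57BL/6J, 12 in NZO/HlLtJ, 22 averaged over strains and 2 for NZO/HlLtJ minus CAST/EiJ. DESeq2 called 1, 11 and 2 in C57BL/6J, NZO/HlLtJ and that difference, and limma on the variance-stabilized values called 1 for the difference, while Decr1 in NZO/HlLtJ lost its call (0.17, adjusted p = 0.0509). Without ID run 77, 81 or 89 (chosen after seeing the data) the diet counts were 2, 0 and 1 in CAST/EiJ and 1, 0 and 2 in NZO/HlLtJ. The averaged count was 5 without run 77 and 8 without run 81. The F-M difference of CAST/EiJ from C57BL/6J gave 6 without run 89, and that of NZO/HlLtJ gave 5, 3 and 4 without run 77, 81 or 89. Fewer libraries enter these fits, and their part in the loss was not tested. For the alternative fits in all sections, the share of all genes called under the same fit is not given here. A count that rises or falls there may therefore follow how many genes that fit calls in all. Whether the change is particular to the genes described was not tested. Matches to the promoter motif numbered 0 at 1 mismatch and 10 at 3.

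Leaving out 1 library at a time gave 0 diet calls in C57BL/6J, 2 to 8 in CAST/EiJ, 4 to 11 in NZO/HlLtJ and 13 to 16 averaged. For the diet effect of NZO/HlLtJ minus CAST/EiJ it gave 0 to 2, the 2 without NZO/HlLtJ M 44% replicate 2, and for the other differences of diet effects 0. For F against M it gave 25 to 29 in C57BL/6J, 25 to 26 in CAST/EiJ and 23 to 27 in NZO/HlLtJ, and for the strain differences of F against M 11 to 15 and 7 to 10. For strains on 10% fat it gave 17 to 20, 22 to 25 and 22 to 29. DESeq2 size factors, no ID run term and leaving out mitochondrial genes ended no call of a named gene and kept each count within 1.5 times. Without the filter on low counts Decr1 in NZO/HlLtJ was no longer called. No paired analysis was possible because the labels give no replicate numbers that pair libraries across groups. The ID run was a term of the model instead, and diet differences were also taken within each run.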
